A study of Mus musculus with 36 samples.

Results

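The comparison asked what withdrawal of gravity aboard a spacecraft did to gene expression in nanoceria-treated myoblasts. It set the 3 libraries labelled as space without gravity, with nanoceria, against the 3 labelled as space with gravity, with nanoceria. These were 6 of the 18 libraries of polyadenylated RNA, chosen by their labels alone, and every difference is given as without minus with gravity. The cells were C2C12, an established line of proliferating mouse myoblasts (muscle precursor cells that divide until they exit the cell cycle and fuse into myotubes), at passage 6 to 10. Both groups carried the same treatment, 100 µg/ml nanoceria (cerium oxide nanoparticles, coated with serum and loaded in a medium reservoir), and both were flown in sealed experiment units, 3 per group, held in an incubator set at 37 °C and preserved with RNAlater. They also shared seeding at 1500 cells per cm2 and transit at 25 to 30 °C. How gravity was supplied in orbit was not given in the sources used here. The 2 groups of the flight without nanoceria, also 3 libraries each, served only for a test of whether the gravity difference depended on nanoceria. A single line from 1 species stood for muscle precursors, so the p-values measure the spread between culture units of that line.

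Nanoceria are known as particles that can take up and release oxygen and act as catalytic scavengers of reactive oxygen species, most of which arise in cells from the mitochondrial respiratory chain. The mitochondrial genome encodes subunits of complexes I, III, IV and V of that chain, while all other subunits are encoded in the nucleus. Genes of mitosis are transcribed in waves as a cell divides, so their level in a bulk culture follows how many cells are dividing and how much RNA each holds. A bulk library cannot tell fewer cells of a kind from less RNA per cell.

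No gene passed the test across all genes. Among the 37 pathway lists, which leave out 7 lists of cell type markers, 2 had medians farthest from that of all genes. These were the mitochondrially encoded mRNAs and the genes of mitosis, both higher without gravity. All 11 mitochondrially encoded mRNAs that could be tested were higher without gravity, with a median log2 fold change of 2.06. Of 47 tested mitosis genes, 40 were higher, with a median of 1.09. Ribosomal protein mRNAs had a smaller median, 0.55, which was 0.23 without the library of fewest counts, and 0 of 70 had an unadjusted p under 0.05. The lists for oxidative defence, muscle identity, matrix and adhesion lay near the median of all genes.

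The libraries differed widely in depth. Those without gravity held 6397466, 2986628 and 5971622 counts and those with gravity 10418096, 7940811 and 23858. In the last, 4880 genes had a count, against 13518 to 17101 in the other 5. A set of 6 dominant genes (Lars2, Gm23935, Gm15564, Gm24270, Gm24187 and Gm25911) took 40.7, 56.4 and 47.0% of counts without gravity and 32.1, 54.4 and 23.8% with gravity. That share overlapped between the groups (mean difference 11.3 percentage points, 2-sided exact permutation p 0.3, adjusted over the 2 shares compared 0.3), and without the smallest library the difference was 4.82 points. The denominator of the levels below was chosen after the scaled size of the smallest library was seen to stand apart. Levels are given as CPM, with the counts outside those 6 genes taken as the library's total. Of these counts the libraries held 3793922, 1300958 and 3164657 without gravity and 7075487, 3623463 and 18168 with gravity. In the smallest library 1 count equalled 55.0 CPM and the floor of 3 counts 165 CPM, against a floor of 0.424 to 2.31 CPM in the other 5. A 0 in that library therefore allows a level of up to 165 CPM, and where it had 0 counts the order of the groups is given below against the 2 deep libraries with gravity only. A log2 fold change or median in square brackets is the value without that library. The fit across genes used TMM (trimmed mean of M values) scaling, and the scaled size of the smallest library over its counts outside the 6 genes was 4.62, against 1.73 to 2.07 in the other 5.

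The cells carried part of the myoblast marker set. Desmin (Des, the muscle intermediate filament) was at 117, 111 and 180.1 CPM without gravity and 231, 305 and 220.2 with it. Ncam1, an adhesion molecule of myogenic cells, lay between 2037 and 6302 CPM in the 6 libraries, and the myogenic factor Myf5 between 55.0 and 191. Myod1, the factor that defines the myoblast, was near 0, with 6.85, 0 and 0 CPM without gravity and 0.283 and 0.276 in the 2 deep libraries with gravity (1 count in the smallest). Pax7 and Cdh15 were also near 0, at no more than 1.58 CPM in any library. Most genes of the fused myotube were near 0: Myog and Ckm had 1 count each over the 6 libraries, Myh3 had 4 and Mymk 7. Tnnt3 was at no more than 3.48 CPM in any library. Acta1 was higher, at 8.70, 32.3 and 4.11 CPM without gravity. With gravity it was at 8.76 and 17.7 CPM in the 2 deep libraries (1 count in the smallest). Summed markers of other cell types were low in the 5 deep libraries for neural cells (3.79 to 13.2 CPM), adipocytes (13.2 to 21.8) and epithelium (2.54 to 8.28). They were 12.4 to 52.4 CPM for macrophages, 0 to 38.2 for endothelium and 18.6 to 229 for osteoblasts. The chondrocyte list was the highest of them at 154 to 371 CPM, of which 5 of 10 members were at 0 in all 6 libraries. The neural list reached 1156 CPM (21 counts) in the smallest library and the osteoblast list 936 (17 counts). The list of myogenic differentiation genes reached 3633 CPM (66 counts) there, against 106 to 186 CPM in the 5 deep libraries. What part these had in the results below was not tested.

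In the edgeR quasi-likelihood test with Benjamini-Hochberg adjustment, 0 of 11558 genes passed an adjusted p of 0.05 (0.0%), and the smallest adjusted p was 0.545. At an unadjusted p under 0.05 there were 668 genes (5.78%), of which 271 were higher without gravity (2.34%) and 397 lower (3.43%). Leaving out the smallest library gave 0 called and 631 at the unadjusted threshold (5.46%), 239 higher (2.07%) and 392 lower (3.39%). DESeq2, run as an alternative, called 31 genes at an adjusted p under 0.05 (0.268%), 8 higher and 23 lower, and 19 of the 30 that had a value without the smallest library were called there too. Over all genes the median log2 fold change was 0.094 with 55.2% of genes above 0, and 0.0062 with 50.3% above 0 without the smallest library. Every count of list members below is read against these shares. All 3 libraries lay above all 3 for 8.71% of genes and below for 2.09%, and with the smallest library left out these shares were 11.8% and 8.95%.

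The mitochondrial genome held a larger share of counts without gravity. Of counts outside the 6 dominant genes it took 0.374, 0.364 and 0.507% without gravity (mean 0.415% ± 0.0798 SD, n = 3) and 0.109, 0.107 and 0.182% with gravity (0.133% ± 0.0425 SD, n = 3). The value of 0.182% came from 33 counts of the smallest library (Wilson 95% interval 0.129 to 0.255, counting error only). The groups did not overlap, and the difference of 0.283 percentage points had a 2-sided exact permutation p of 0.1, the smallest that 3 libraries against 3 can give (adjusted over the 2 shares 0.2). It was 0.307 points without the smallest library and 0.129 points when all counts, dominant genes included, were the denominator.

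Of 15 mitochondrial genes listed, 13 were in the files and 11 were tested. All 11 were higher without gravity, and 9 of them had an unadjusted p under 0.05 (8 without the smallest library). In 10 of the 11 every library without gravity lay above every library with gravity, where the share over all genes was 8.71%. For mt-Co2, mt-Co3 and mt-Atp6 the smallest library had 0 counts. The 10 also lay above both deep libraries with gravity when it was left out, where the share over all genes was 11.8%. The median log2 fold change was 2.06, and 1.88 without the smallest library. Leaving out each of the other 5 libraries in turn gave 1.88 to 2.26. These genes are read from shared long precursor transcripts, so they are not independent observations.

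**Figure D1:**
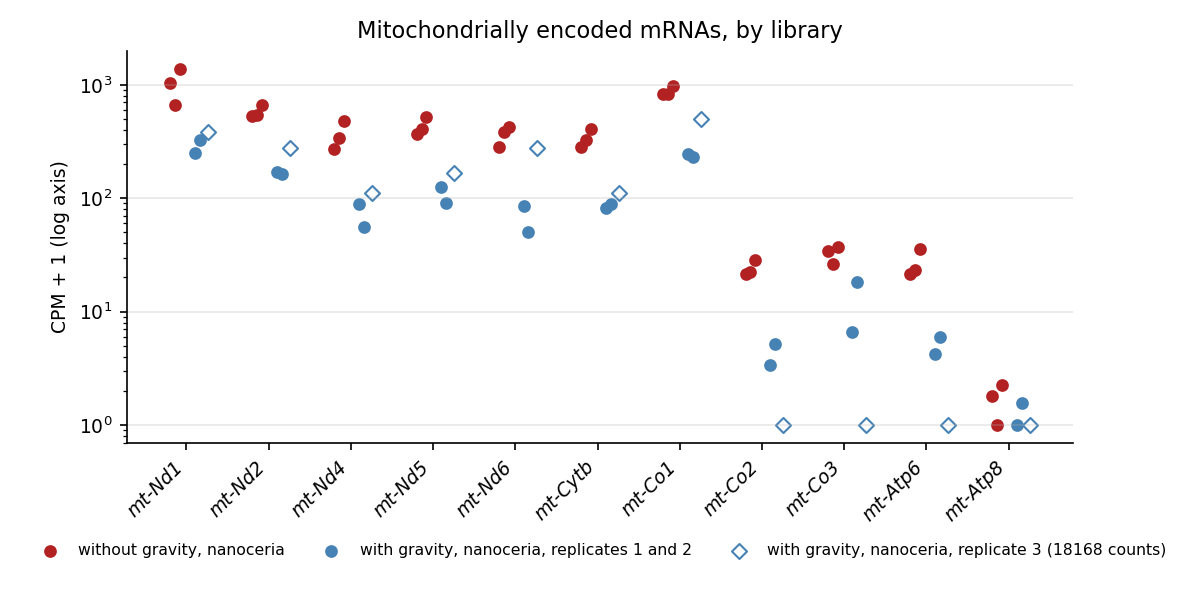
Level of the 11 tested mitochondrially encoded mRNAs in each of the 6 libraries, as CPM outside the 6 dominant genes plus 1, on a log axis. Filled red points are the 3 libraries without gravity, filled blue points the 2 deep libraries with gravity, and open diamonds the smallest library, where a point at the bottom is 0 counts and allows up to 165 CPM. For every gene but mt-Atp8 the red points lie above the blue ones.

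Complex I subunits were represented by 5 tested genes. mt-Nd4 was at 268, 337 and 479.7 CPM without gravity and 87.5, 54.9 and 110.1 with it. The lowest library without gravity was thus above the highest with gravity, and the log2 fold change was 2.36 ± 0.72 (SE) [2.24 ± 0.79] (edgeR adjusted p 0.694). mt-Nd5 was at 371, 410.5 and 524 CPM against 126, 89.4 and 165, and mt-Nd2 at 531, 537 and 659 against 168, 162 and 275. In neither did any library of one group reach the other, with log2 fold changes of 2.06 [1.91] and 1.84 [1.69]. mt-Nd1 ranged more widely, with 1045, 660.3 and 1391 CPM against 252, 324 and 385, and its unadjusted p was 0.0504. mt-Nd6, the only one of the protein genes on the opposite strand of the mitochondrial DNA, was at 284, 379 and 425 against 84.4, 49.4 and 275 CPM. Its smallest gap was between 284 and 275 CPM, the latter from 5 counts. Whether counting used strand was not given in the sources used here, so reads from mt-Nd6 and from the opposite strand cannot be told apart.

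mt-Cytb, the complex III subunit cytochrome b, was at 285, 326 and 406 CPM without gravity and 81.4, 87.5 and 110.1 with it. The log2 fold change was 2.06 ± 0.64 (SE), or 1.88 ± 0.67 (SE) without the smallest library. Of the complex IV subunits, mt-Co1 was at 823, 829 and 971 against 244, 229.9 and 495 CPM. This gene had the most counts in the smallest library, 9, and its log2 fold change was 1.86 ± 0.62 (SE) [1.77 ± 0.66]. mt-Co2 was at 20.3, 21.5 and 27.5 against 2.40, 4.14 and 0 CPM and mt-Co3 at 32.9, 25.4 and 36.0 against 5.65, 17.4 and 0. mt-Co2 had the smallest unadjusted p of the list, 0.00214 (edgeR adjusted p 0.631), and mt-Co3 the smallest log2 fold change, 1.46 [1.33]. In complex V, mt-Atp6 was at 20.6, 22.3 and 34.4 against 3.25, 4.97 and 0 CPM, and all 3 libraries without gravity were above both deep libraries with it. mt-Atp8, of which 21.1% of exon bases lie within mt-Atp6, was at no more than 1.26 CPM in any library.

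The nuclear genes of the same chain lay near all genes. Of 52 nuclear oxidative phosphorylation genes, 37 were higher without gravity and 0 had an unadjusted p under 0.05 in either direction. Their median log2 fold change was 0.18, and 0.013 without the smallest library, against 0.094 and 0.0062 for all genes. Their summed level was 2287, 3245 and 2704 CPM without gravity and 1983, 2939.7 and 1871 with gravity, so the groups overlapped. Glycolysis and hypoxia genes gave a median of 0.10, or −0.33 without the smallest library, with 8 of 33 higher in the latter case. Slc16a3, a lactate exporter, was at 61.4, 49.2 and 60.4 CPM without gravity and 163, 226 and 55.0 with it. The 2 deep libraries with gravity were the high ones, and the smallest, with 1 count, lay among those without gravity. The log2 fold change was −1.49 ± 0.71 (SE) and −1.89 ± 0.67 (SE) without that library.

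Among genes of mitosis and chromosome segregation, 47 of the 53 listed were tested. Of these 40 were higher without gravity, 9 with an unadjusted p under 0.05, and 7 were lower, 1 of them with such a p. Without the smallest library 37 were higher, 10 of them under the threshold. The median log2 fold change was 1.09 and 0.97 without that library. In 12 of 47 all 3 libraries without gravity lay above all 3 with gravity, and in 0 below, but in 11 of the 12 the smallest library had 0 counts. Without it 15 of 47 lay above both deep libraries and 1 below, where the shares over all genes were 11.8% and 8.95%. The summed level of the list was 1499, 997 and 903 CPM without gravity and 396, 788 and 771 with gravity (the last from 14 counts), so the groups did not overlap in the sum, with replicate 1 the highest without gravity and replicate 1 the lowest with it. The median also turned on single libraries: it was 0.49 without replicate 1 of the group without gravity and 2.12 without replicate 2 of the group with gravity.

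Promoters of these genes are shown for the 3 members that were higher at the unadjusted threshold and whose window held both motifs known from mitotic promoters. These are the CHR (cell cycle genes homology region, letters TTTGAA or the reverse TTCAAA), read by the DREAM and MMB complexes, and the CCAAT box (CCAAT or the reverse ATTGG), read by NF-Y. The sequences are from RefSeq on GRCm38.p6, run 5′ to 3′ in the direction of the gene from 200 bases before the start site through 20 from it, with motif letters in capitals.
Mki67 promoter, GRCm38.p6 chr7:135716360-135716579, minus strand: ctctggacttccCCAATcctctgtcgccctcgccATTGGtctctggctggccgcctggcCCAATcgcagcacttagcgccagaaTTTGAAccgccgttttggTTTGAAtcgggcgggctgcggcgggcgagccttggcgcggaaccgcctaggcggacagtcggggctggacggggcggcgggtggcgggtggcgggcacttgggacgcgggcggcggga
Cenpf promoter, GRCm38.p6 chr1:189688067-189688286, minus strand: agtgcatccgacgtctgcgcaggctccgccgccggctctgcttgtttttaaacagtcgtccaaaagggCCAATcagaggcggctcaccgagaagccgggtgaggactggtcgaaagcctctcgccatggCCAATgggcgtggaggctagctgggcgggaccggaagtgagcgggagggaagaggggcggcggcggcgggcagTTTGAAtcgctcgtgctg
Ttk promoter, GRCm38.p6 chr9:83834489-83834708, plus strand: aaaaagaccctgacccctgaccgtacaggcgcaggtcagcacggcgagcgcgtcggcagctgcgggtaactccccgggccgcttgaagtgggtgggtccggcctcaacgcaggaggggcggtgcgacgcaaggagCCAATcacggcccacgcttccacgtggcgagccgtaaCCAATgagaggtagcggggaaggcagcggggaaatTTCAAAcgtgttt
In Mki67 the CHR letters begin 116 and 98 bases before the start site, with 3 CCAAT boxes farther upstream, while in Cenpf and Ttk they begin 2 and 7 bases after it. RefSeq windows of 250 bases before to 50 after the start site were matched by symbol for 40 of the 47 tested mitosis genes and 8470 of all 11558 tested genes. A CHR was present in 30 of the 40 (75%), against 13.6% of all tested genes, and in 76.7% of their windows, against 17.9% of all promoter windows. CCAAT letters were present in 72.5% against 43.0% of genes, and both motifs in 62.5% against 5.61%. Of the 9 members higher at the unadjusted threshold 7 were matched. A CHR was present in 4 of them (57.1%), CCAAT letters in 5 (71.4%) and both motifs in 3 (42.9%), none of these shares above that of the whole list. The motifs overlap no letters of each other in the 3 windows printed, and a match of letters is a description of the window only. Tpx2 and Smc4 were not matched.

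**Figure D2:**
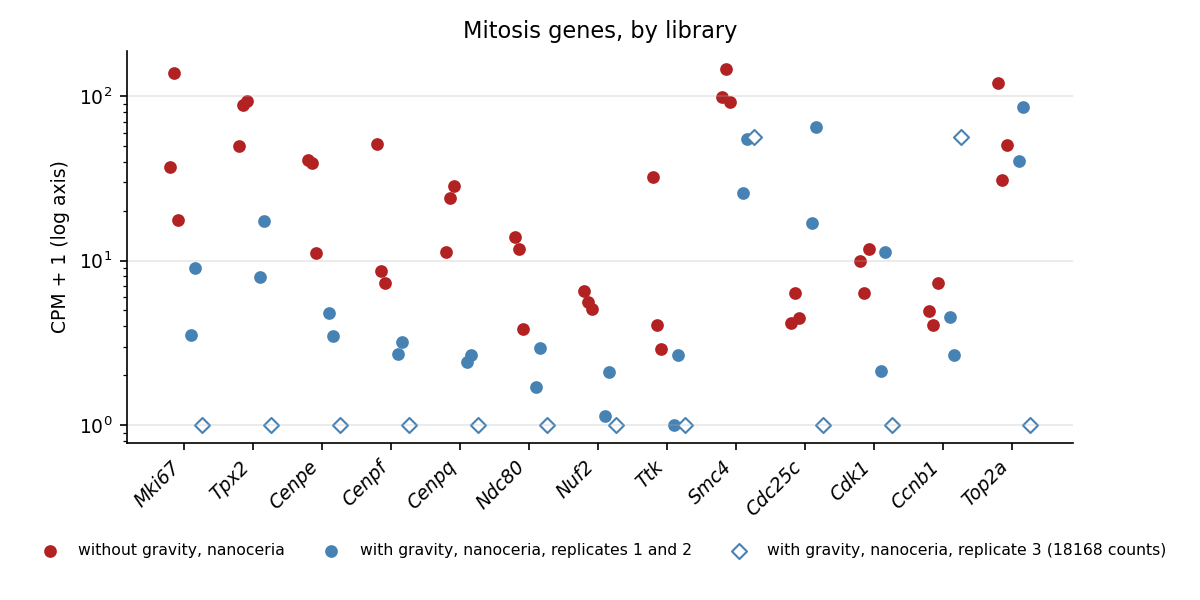
Level of 13 mitosis genes in each of the 6 libraries, as CPM outside the 6 dominant genes plus 1, on a log axis, with colours and symbols as for the mitochondrial mRNAs. The 9 genes from Mki67 to Smc4 are higher without gravity at an unadjusted p under 0.05, Cdc25c is lower, and Cdk1, Ccnb1 and Top2a overlap between the groups; diamonds at the bottom are 0 counts, which allow up to 165 CPM.

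At the kinetochore, where chromosomes attach to the spindle, 5 genes were among the 9. Cenpq, a subunit of the inner kinetochore, was at 10.3, 23.1 and 27.5 CPM without gravity and 1.41, 1.66 and 0 with it. Every library without gravity lay above the 2 deep libraries with gravity, and the log2 fold change of 3.60 ± 0.81 (SE) [3.57 ± 0.83] had the smallest p of the list (edgeR adjusted p 0.545, DESeq2 adjusted p 0.0346). Cenpe, a kinetochore motor, was at 39.8, 38.4 and 10.1 against 3.82, 2.48 and 0 CPM, and its log2 fold change was 3.12 ± 0.85 (SE) [3.07 ± 0.89]. Ndc80 and Nuf2, which form part of the complex that grips microtubules, were low. Ndc80 was at 12.9, 10.8 and 2.84 against 0.707, 1.93 and 0 CPM and Nuf2 at 5.54, 4.61 and 4.11 against 0.141, 1.10 and 0. In both, all 3 libraries without gravity lay above the 2 deep libraries with it, and log2 fold changes were 2.66 [2.62] and 2.89 [2.86]. Cenpf was at 49.8, 7.69 and 6.32 against 1.70, 2.21 and 0 CPM, with replicate 1 far above the others. The genes of this list beyond Cenpq, Cenpe, Tpx2 and Mki67 were chosen for naming after their values were seen.

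Tpx2, which activates Aurora A on the spindle, was at 48.5, 87.6 and 92.0 CPM without gravity and 6.93, 16.3 and 0 with it. The 3 libraries without gravity were close to each other and above the 2 deep libraries with gravity, with a log2 fold change of 2.69 ± 0.80 (SE), or 2.57 ± 0.85 (SE) without the smallest library. Mki67, the proliferation antigen that coats mitotic chromosomes, was at 36.1, 138 and 16.7 against 2.54, 8.0 and 0 CPM. Replicate 2 without gravity was the highest of the 6, and the log2 fold change was 3.47 ± 1.11 (SE) [3.40 ± 1.21], or 2.34 without that library. Smc4, a core subunit of condensin, was at 98.3, 146 and 90.7 against 24.6, 54.1 and 55.0 CPM, the last from 1 count. Its log2 fold change of 1.48 [1.35] was the smallest of the 9. Ttk, a kinase of the spindle checkpoint, was at 31.1, 3.07 and 1.90 against 0, 1.66 and 0 CPM, and most of its counts were in replicate 1 without gravity.

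Other central genes of mitosis overlapped between the groups. Cdk1, the mitotic kinase, was at 8.96, 5.38 and 10.7 CPM without gravity and 1.13, 10.2 and 0 with it (log2 fold change 0.57 ± 0.84 (SE) [0.46 ± 0.86]). Top2a, which untangles sister chromosomes, was at 119, 30.0 and 49.3 against 39.1, 85.3 and 0 CPM (0.31 ± 0.88 (SE) [−0.016 ± 0.90]). Ccnb1, the cyclin of Cdk1, was at 3.95, 3.07 and 6.32 against 3.53, 1.66 and 55.0 CPM, the last from 1 count. None of these had a difference beyond its error. Cdc25c, the phosphatase that activates Cdk1, had the opposite order in the deep libraries, with 3.16, 5.38 and 3.48 CPM without gravity and 15.8, 64.0 and 0 with gravity. Its log2 fold change was −3.22 ± 1.14 (SE) and −3.49 ± 1.18 (SE) without the smallest library.

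Other lists of the cell cycle stood nearer to all genes. Of 40 DNA replication and licensing genes 26 were higher, with a median of 0.20 (0.18 without the smallest library), and 2 of them, Gmnn and Pole, had an unadjusted p under 0.05. Gmnn (geminin, the inhibitor of replication licensing) was at 2.37, 7.69 and 11.4 CPM without gravity and 1.13, 1.66 and 0 with it. Pole, the catalytic subunit of DNA polymerase epsilon, was at 22.9, 2.31 and 4.42 against 0.565, 1.38 and 0 and was named after its values were seen. In both genes all 3 libraries without gravity lay above the 2 deep libraries with it, and log2 fold changes were 2.24 [2.22] and 3.33 [3.29]. Pola1, a subunit of DNA polymerase alpha, was at 6.33, 3.07 and 3.48 CPM without gravity against 1.98 and 0.828 in the deep libraries with gravity, but had 16 counts (881 CPM) in the smallest. Its log2 fold change of −4.35 ± 1.53 (SE) turned to 1.49 ± 0.84 (SE) without that library. Of 9 replication-dependent histone genes tested 7 were higher and 0 of those under the threshold. Hist1h2ac, a histone H2A gene that shares 29.0% of its exon bases with Gm44350 on the opposite strand, was lower, at 9.75, 2.31 and 6.95 against 35.3, 43.3 and 0 CPM (−2.41 ± 0.97 (SE) [−2.68 ± 0.98]). The 2 deep libraries with gravity were the high ones.

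Of 25 inhibitors of the cell cycle and p53 targets 17 were higher, with a median of 0.34 (0.079 without the smallest library). Cdkn1a, the p21 inhibitor of cyclin-dependent kinases, was at 274, 374 and 307 CPM without gravity and 483, 434 and 220.2 with it, and these overlapped. Pmaip1 (Noxa, a promoter of apoptosis) was at 51.7, 266 and 6.64 against 35.2, 1.93 and 55.0 CPM, with replicate 2 without gravity highest. DNA repair genes had a median of 0.10 [−0.0013], and 1 of 29 was under the threshold. That was Brca1, a recombination repair gene that is also expressed with the cell cycle, at 35.1, 6.92 and 8.22 CPM without gravity and 2.54, 1.93 and 0 with it. All 3 libraries without gravity lay above the 2 deep libraries with it, and the log2 fold change was 2.86 ± 0.94 (SE), or 2.81 ± 0.97 (SE) without the smallest library.

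All 70 cytosolic ribosomal protein genes had a log2 fold change above 0, where the share over all genes was 55.2%. None had an unadjusted p under 0.05 and the median was 0.55. Without the smallest library 59 of 70 were above 0 and the median was 0.23. Their summed level was 20704, 32149 and 23913 CPM without gravity and 14184, 25372 and 9302 with it, so replicate 2 with gravity lay among the libraries without gravity. The smallest library held 169 counts of the list, and without replicate 2 of the group with gravity the median was 1.28.

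**Figure D3:**
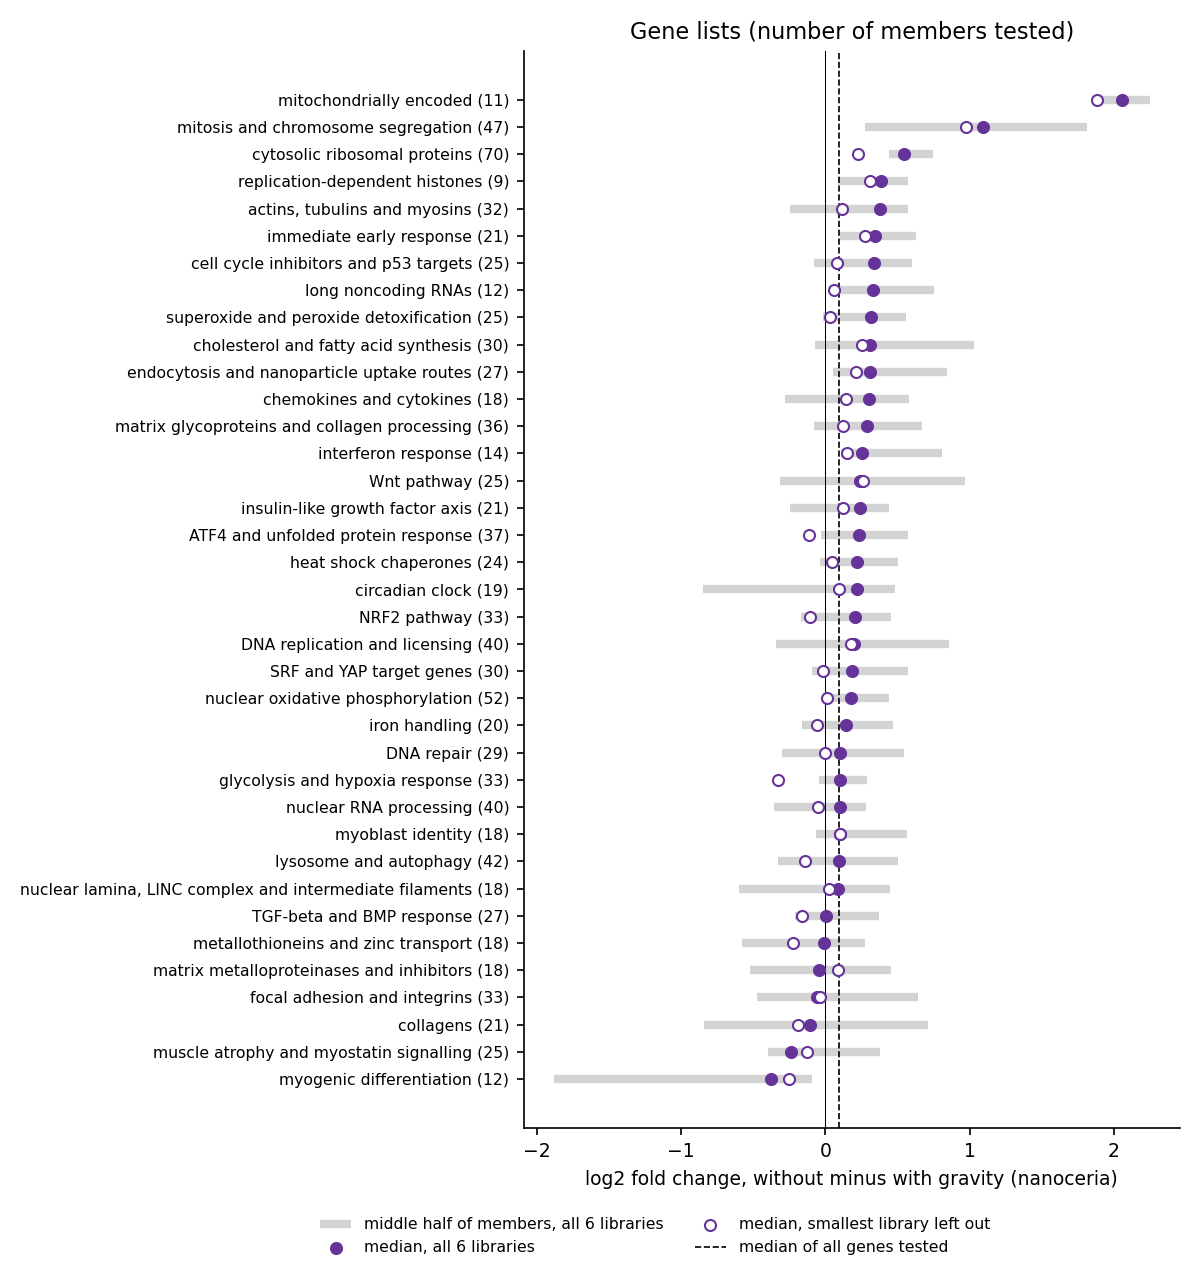
Median log2 fold change of each of the 37 gene lists, without minus with gravity in nanoceria-treated cells, from the fit on all libraries (filled) and with the smallest library left out (open); grey bars span the middle 50% of members. The mitochondrially encoded list at 2.06 and the mitosis list at 1.09 lie apart from the dashed line at 0.094, the median of all genes tested.

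Lists of oxidative defence, the setting in which nanoceria are studied, lay close to all genes. Of 33 genes of the NRF2 pathway, the inducible antioxidant program, 21 were higher, with a median of 0.21 (−0.11 without the smallest library). Its defining members overlapped between the groups: Hmox1 (heme oxygenase) was at 323, 534 and 538 CPM without gravity and 487, 329.5 and 220.2 with it, and Nqo1, a quinone reductase, at 254, 379 and 82.2 against 267, 48.8 and 275. Osgin1, an NRF2 target named for growth inhibition under oxidative stress, was the 1 member under the threshold. It was at 36.4, 149 and 5.69 CPM without gravity and 5.09, 1.38 and 0 with it. All 3 libraries without gravity lay above the 2 deep libraries with it, but the lowest value without gravity and the highest with it were 5.69 and 5.09, and the log2 fold change was 4.10 ± 1.35 (SE) [4.08 ± 1.47] (edgeR adjusted p 0.717), or 2.66 without replicate 2 of the group without gravity. Superoxide and peroxide enzymes had a median of 0.32 [0.035] with 17 of 25 higher and 0 under the threshold. Sod1, the cytosolic superoxide dismutase, was at 706, 1193 and 1119.9 against 1227, 979.7 and 330.3 CPM, which overlapped. Iron handling genes (12 of 20 higher, median 0.14 [−0.057]) had 0 under the threshold in either direction. Metallothionein and zinc transport genes (9 of 18 higher, median −0.012 [−0.22]) had 0 higher and 2 lower. Of these, the metal-responsive factor Mtf1 was at 4.48, 12.3 and 5.69 CPM without gravity and 13.3, 16.6 and 110.1 with it, the last from 2 counts (log2 fold change −1.47 ± 0.66 (SE) [−1.18 ± 0.63]), and 8.09% of its exon bases are shared with 1110065P20Rik on the opposite strand. The zinc importer Slc39a10 was at 8.96, 13.8 and 7.58 against 67.3, 5.24 and 0 CPM, so replicate 1 with gravity alone was high, and without that library its log2 fold change of −1.73 ± 0.80 (SE) [−1.95 ± 0.79] turned to 0.90.

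Routes by which particles enter cells and are broken down were listed too. Of 27 endocytosis genes 21 were higher, with a median of 0.31 (0.21 without the smallest library), and 2 were under the threshold. Rac1, a GTPase of membrane ruffling, was at 188, 231 and 125 CPM without gravity and 84.1, 79.8 and 0 with it. The 3 libraries without gravity lay above the 2 deep libraries with it, with a log2 fold change of 1.36 ± 0.61 (SE) [1.01 ± 0.49], though 51.4% of its exon bases are shared with Daglb on the opposite strand. Of 42 lysosome and autophagy genes 26 were higher (median 0.097 [−0.14]). Rb1cc1, which starts autophagosomes with ULK1, was at 147, 132 and 198 against 80.8, 66.0 and 0 CPM, so that all 3 libraries without gravity lay above the 2 deep libraries with it (log2 fold change 1.34 ± 0.57 (SE) [1.01 ± 0.44]). Atg16l1, which directs LC3 to the growing membrane, was at 11.1, 9.22 and 7.90 against 36.5, 17.4 and 0 CPM. It had the opposite order in the deep libraries, with a log2 fold change of −1.41 ± 0.56 (SE) [−1.61 ± 0.49].

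Among muscle genes, most of those of myogenic differentiation were below 0, with and without the smallest library. Of 18 myoblast identity genes 13 were higher (median 0.099 [0.10]), but only 9 without the smallest library, where 50.3% of all genes were higher. The 1 member under the threshold was Megf10, a receptor of satellite cells. It was at 37.7, 2.31 and 1.26 CPM without gravity and 1.98, 0.828 and 55.0 with it, so replicate 1 without gravity alone was high. Without that library its log2 fold change of 2.83 ± 1.25 (SE) [3.19 ± 1.18] turned to −0.31. Of 12 tested genes of myogenic differentiation 10 were lower, with a median of −0.38 (−0.25 without the smallest library, again with 10 lower), where 55.2% of all genes were higher. The members under the threshold were Ttn and Myom1. Ttn (titin) had 15 counts in the smallest library, 826 CPM, and no more than 2.31 CPM in the other 5. Its log2 fold change was −6.47, and 2.58 without that library. Myom1 (myomesin, of the sarcomere M-band) was at 2.37, 3.07 and 4.42 CPM without gravity against 2.26, 16.8 and 55.0 with it, which overlapped, and its log2 fold change was −1.81 ± 0.84 (SE) [−1.66 ± 0.84]. Atrophy and myostatin genes had a median of −0.24 [−0.13], 0 of 25 under the threshold. Fbxo32, the atrophy ubiquitin ligase atrogin-1, was at 25.0, 8.46 and 3.16 against 41.8, 30.9 and 0 CPM and was lower without gravity than the 2 deep libraries with it. In the insulin-like growth factor axis the median was 0.24 [0.12], 14 of 21 higher, and the member under the threshold was Mtor, the growth kinase. It was at 6.59, 5.38 and 18 against 14.7, 27.6 and 55.0 CPM, which overlapped, with a log2 fold change of −1.16 ± 0.55 (SE) [−1.17 ± 0.55].

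Genes that read mechanical load were near all genes as well. Medians were −0.058 for 33 focal adhesion genes, 0.18 for 30 SRF and YAP targets, 0.38 for 32 actins, tubulins and myosins, and 0.087 for 18 genes of the nuclear envelope and intermediate filaments. Without the smallest library they were −0.036, −0.015, 0.11 and 0.025. Ptk2, the focal adhesion kinase, was at 183, 46.9 and 224 CPM without gravity and 40.6, 42.2 and 0 with it. The 3 libraries without gravity lay above the 2 deep libraries with it, the smallest gap being from 46.9 to 42.2 CPM. The log2 fold change was 2.04 ± 0.71 (SE) and 1.78 ± 0.70 (SE) without the smallest library. Pxn (paxillin, the adaptor of the same adhesions) had the opposite sign, at 8.17, 11.5 and 7.27 against 10.7, 25.9 and 220.2 CPM, the last from 4 counts. Its groups overlapped in the deep libraries, and the log2 fold change was −1.81 ± 0.79 (SE) [−1.18 ± 0.71]. Of the SRF and YAP list, Tead4, a DNA-binding partner of YAP, was the 1 member under the threshold. It was at 0.791, 0 and 0.316 against 4.38, 2.48 and 0 CPM, lower without gravity than in the 2 deep libraries with it (log2 fold change −2.87 ± 1.16 (SE) [−2.95 ± 1.18]). Collagens had a median of −0.11 [−0.19] (10 of 21 higher), matrix glycoproteins 0.29 [0.12] (24 of 36) and matrix metalloproteinases −0.041 [0.085] (8 of 18). None of these 3 lists had a member under the threshold.

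Among signalling lists, TGF-beta and BMP genes had a median of 0.0031 [−0.16]. Grem1, a secreted BMP antagonist, was at 335, 214 and 181 CPM without gravity and 74.8, 113 and 55.0 with it. Its groups did not overlap, though the smallest library had 1 count, and the log2 fold change was 1.55 ± 0.63 (SE) [1.25 ± 0.62]. Smad5, a transcription factor of BMP signalling, had the opposite sign at 79.3, 32.3 and 13.0 against 183, 93.3 and 110.1 CPM. All 3 libraries with gravity were above those without it, and the log2 fold change was −1.54 ± 0.71 (SE) [−1.82 ± 0.71]. Wnt5a, a noncanonical Wnt ligand, was at 11.6, 6.92 and 3.79 against 0.283, 0 and 0 CPM, where the libraries with gravity held 2 counts in all. Wnt genes as a list had a median of 0.24 [0.26], 13 of 25 higher. Of 37 genes of ATF4 and the unfolded protein response 27 were higher, with a median that went from 0.23 to −0.12 without the smallest library. Eif2ak3 (PERK, the kinase that senses endoplasmic reticulum stress) was at 19.2, 61.5 and 34.8 against 8.90, 6.07 and 0 CPM, above the 2 deep libraries with gravity in all 3 without it, with a log2 fold change of 2.28 ± 0.79 (SE) [2.20 ± 0.83]. Of 30 genes of cholesterol and fatty acid synthesis 21 were higher, 3 of them under the threshold, and 9 were lower, 1 of them under it. Without the smallest library 1 higher and 0 lower members were under it. Insig1, which retains the sterol sensor in the endoplasmic reticulum, was at 93.3, 121 and 95.4 against 41.7, 34.2 and 55.0 CPM and did not overlap (log2 fold change 1.43 ± 0.61 (SE) [1.32 ± 0.64]). Stard4, a sterol carrier named after its values were seen, was at 9.75, 3.07 and 10.4 against 0.565, 1.66 and 0 CPM (2.77 ± 1.28 (SE) [2.74 ± 1.34]). Acaca, the acetyl-CoA carboxylase that starts fatty acid synthesis, was the lower one, at 5.01, 5.38 and 4.74 against 30.1, 1.38 and 330.3 CPM. Its level was highest in the smallest library, from 6 counts, the deep libraries overlapped with those without gravity, and the log2 fold change was −2.90 ± 1.01 (SE) [−1.73 ± 0.84]. Clock, the circadian transcription factor, was at 122, 66.1 and 34.8 against 37.6, 10.2 and 55.0 CPM, and its groups overlapped.

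The remaining lists had at most 1 member under the threshold in a direction. Their medians were those of heat shock chaperones (0.22 [0.045]), immediate early genes (0.35 [0.27]), chemokines and cytokines (0.30 [0.14]), interferon response (0.25 [0.15]), circadian clock (0.22 [0.096]), long noncoding RNAs (0.33 [0.062]) and nuclear RNA processing (0.10 [−0.052]). Besides Clock, the members under the threshold were the interferon factor Irf9 and the splicing genes Srsf7 and Son. Irf9 was at 17.1, 61.5 and 2.53 CPM without gravity and 2.26, 2.48 and 0 with it, highest in replicate 2 without gravity, with a log2 fold change of 3.32 ± 1.44 (SE) [3.30 ± 1.56]. Srsf7 was at 31.9, 52.3 and 84.7 against 22.5, 25.7 and 55.0 CPM, which overlapped (1.13 ± 0.50 (SE) [1.10 ± 0.51]). Son was at 164, 145 and 118 against 177, 143 and 1651 CPM, the last from 30 counts, with a log2 fold change of −1.19 ± 0.56 (SE) [−0.29 ± 0.44].

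Single genes were named where a protein coding gene had a mean of at least 30 CPM over the 6 libraries and groups that did not overlap, 12 in each direction by smallest unadjusted p. Of 4007 genes at that level, 317 had all 3 libraries above and 158 all 3 below. The smallest library bears on the rule unequally: a 0 there met it for 138 of the 317, while a lower gene needed a count there, and 1 count adds 55.0 CPM to one of the 6 values averaged. Without that library 317 of the 317 and 108 of the 158 kept a mean of at least 30 CPM, and so did the 12 higher genes named and 8 of the 12 lower ones. Setdb1, Clpb, Vps18 and Scrn1 did not, with means of 23.9, 29.9, 17.2 and 17.3 CPM over the other 5 libraries. Of the 12 higher genes 5 were mitochondrially encoded, 2 were the mitosis genes Tpx2 and Mki67, and 5 were Ica1, Osbpl3, Stx7, Snapin and Osgin1. The mitochondrial and mitosis genes belong to the lists described above and rest on the same values, so they are no separate result. All 3 libraries lay above all 3 for 10 of 11 tested mitochondrial and 12 of 47 tested mitosis genes. The share over all genes was 8.71%. Ica1 (GRCm38 chr6:8630527-8778488, minus strand), a protein of secretory vesicle membranes, was at 26.9, 162 and 57.2 CPM without gravity and 7.35, 4.97 and 0 with it. Replicate 2 was the highest, and the log2 fold change was 3.62 ± 0.87 (SE) [3.56 ± 0.93] (edgeR adjusted p 0.545, DESeq2 adjusted p 0.0211). Osbpl3, an oxysterol-binding protein of membrane contacts, was at 11.9, 207 and 7.27 against 5.94, 3.31 and 0 CPM. A single library, replicate 2 without gravity, stood far above the rest, and without it the log2 fold change of 3.84 ± 1.16 (SE) [3.80 ± 1.27] was 1.05.

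Stx7, the syntaxin of late endosomes, was at 86.5, 117 and 89.7 CPM without gravity and 38.7, 20.7 and 55.0 with it. Its 3 values without gravity were close, and the log2 fold change of 1.65 ± 0.51 (SE) was 1.60 ± 0.53 (SE) without the smallest library. Snapin, a subunit of complexes that position lysosomes, was at 82.2, 142 and 85.9 against 29.3, 13.5 and 55.0 CPM. Its log2 fold change was 2.14 ± 0.67 (SE) [2.15 ± 0.71], and 15.5% of its exon bases are shared with Ilf2 on the opposite strand.

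The 12 lower genes were all of nuclear origin. Aimp2 (GRCm38 chr5:143902704-143909847, minus strand), a scaffold of the complex of aminoacyl-tRNA synthetases, was at 4.22, 6.15 and 12 CPM without gravity and 23.9, 125 and 110.1 with it. Every library with gravity was above every library without, and the log2 fold change was −3.29 ± 0.73 (SE) [−3.45 ± 0.76] (edgeR adjusted p 0.545, DESeq2 adjusted p 0.0211). It shares 29.4% of its exon bases with Eif2ak1 on the opposite strand. Clpb, a disaggregase of the mitochondrial intermembrane space, was at 15.0, 12.3 and 13.3 against 41.7, 67.1 and 55.0 CPM, and Plcl2, a phospholipase C-like protein without catalysis, at 14.2, 14.6 and 13.6 against 66.7, 78.9 and 55.0. In both the 3 libraries without gravity were within a narrow range, and the log2 fold changes were −1.93 and −2.25 (−2.13 and −2.49 without the smallest library).

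A pair of the 12 act on histones. Wdr82 (GRCm38 chr9:106170928-106191139, plus strand), a subunit of histone H3K4 methyltransferases, was at 25.3, 16.9 and 13.0 CPM without gravity and 93.1, 114 and 275 with it. The highest value was that of the smallest library, from 5 counts, and the log2 fold change was −2.60 ± 0.64 (SE), or −2.61 ± 0.66 (SE) without it (DESeq2 adjusted p 0.0211). Setdb1 (GRCm38 chr3:95323525-95357202, minus strand), a histone H3K9 methyltransferase that silences retroelements, was at 7.64, 9.99 and 9.48 against 44.0, 48.3 and 165 CPM. Its libraries without gravity were close to each other, and the log2 fold change was −2.57 ± 0.64 (SE) [−2.48 ± 0.65] (DESeq2 adjusted p 0.0759). Pknox1, a homeodomain transcription factor, was at 13.7, 25.4 and 13.3 against 55.1, 46.1 and 110.1 CPM, with a log2 fold change of −1.64 ± 0.56 (SE) [−1.68 ± 0.56].

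Tjp1, the scaffold ZO-1 of cell junctions, was at 38.0, 24.6 and 36.3 CPM without gravity and 44.7, 140.5 and 385 with it. The smallest gap between its groups was from 38.0 to 44.7 CPM. Xylt2, which starts glycosaminoglycan chains on proteoglycans, was at 7.64, 11.5 and 29.4 against 92.9, 111 and 55.0 CPM, and Vps18, a core subunit of the complexes that tether endosomes and lysosomes, at 5.54, 12.3 and 8.22 against 32.1, 27.9 and 110.1. Both were lower in all 3 libraries. The log2 fold changes of Tjp1, Xylt2 and Vps18 were −1.79 [−1.62], −2.47 [−2.76] and −2.03 [−1.94]. The other three were Fam13b, Dip2c and Scrn1, with log2 fold changes of −1.98 [−1.84], −1.87 [−1.74] and −2.28 [−2.03]. Of Fam13b, 12.4% of exon bases are shared with Pkd2l2 on the opposite strand.

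**Figure D4:**
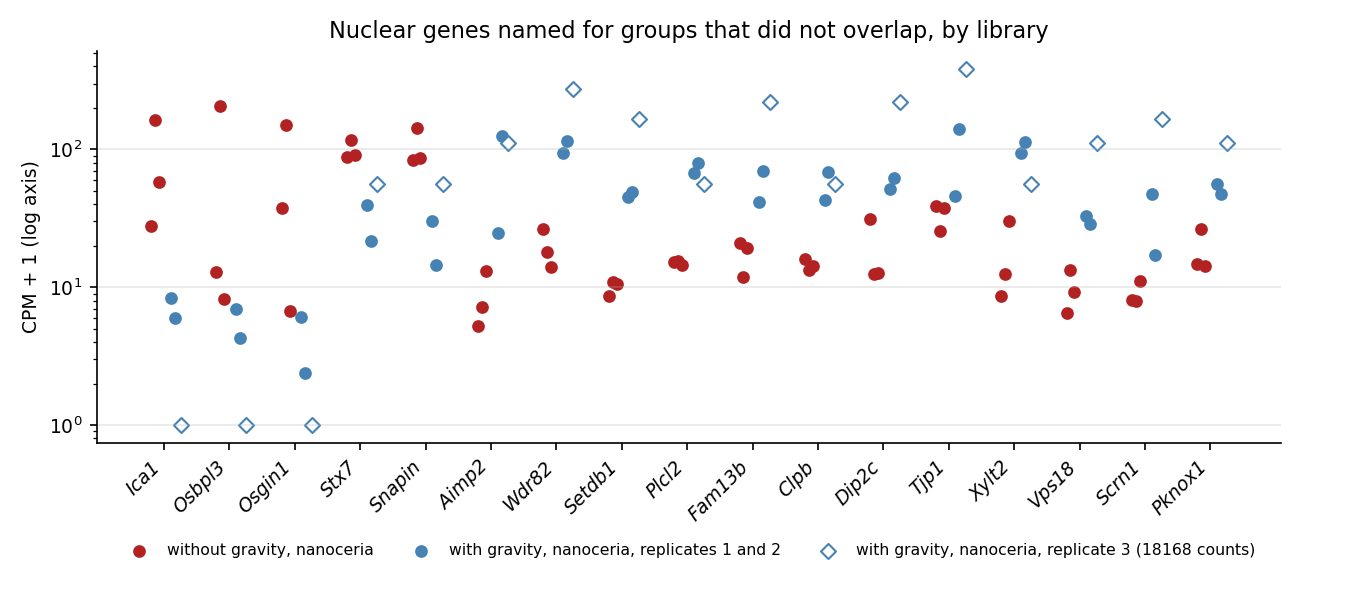
Level of the 5 nuclear genes higher without gravity that are not of the mitosis list (left) and the 12 lower genes (right) in each of the 6 libraries, as CPM outside the 6 dominant genes plus 1, on a log axis, with colours and symbols as above. Groups do not overlap by the rule that chose the genes, with diamonds at the bottom at 0 counts, which allow up to 165 CPM; Osbpl3 and Osgin1 spread widely without gravity, while Plcl2 and Clpb are narrow.

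Whether the gravity difference depended on nanoceria was tested as the difference between that in treated and that in untreated cells. With edgeR 0 of 11558 genes passed the adjusted threshold (0.0%) and 492 had an unadjusted p under 0.05 (4.26%). The mitochondrial share of counts in untreated cells was 0.595, 0.787 and 0.434% without gravity and 0.268, 0.211 and 0.453% with it, so there the groups overlapped. Of the 11 mitochondrially encoded mRNAs all were above 0 in untreated cells too, with a median of 0.69, and 0 of the 11 differences between treated and untreated cells had an unadjusted p under 0.05. For mt-Nd4 the difference was 1.75 ± 0.97 (SE) with an unadjusted edgeR p of 0.0869. The mitosis list had a median of 0.53 in untreated cells, with 37 of 47 above 0. For 4 of its 47 genes the difference had an unadjusted p under 0.05, among them Cenpq (3.06 ± 1.01 (SE)). Ribosomal protein genes had medians of 0.55 and 0.60 with and without nanoceria. Untreated medians depend on the scaling: with libraries scaled to their counts outside the 6 dominant genes the median of all genes moved from −0.012 to 0.44 in untreated cells, and from 0.094 to 0.089 in treated cells.

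**Figure D5:**
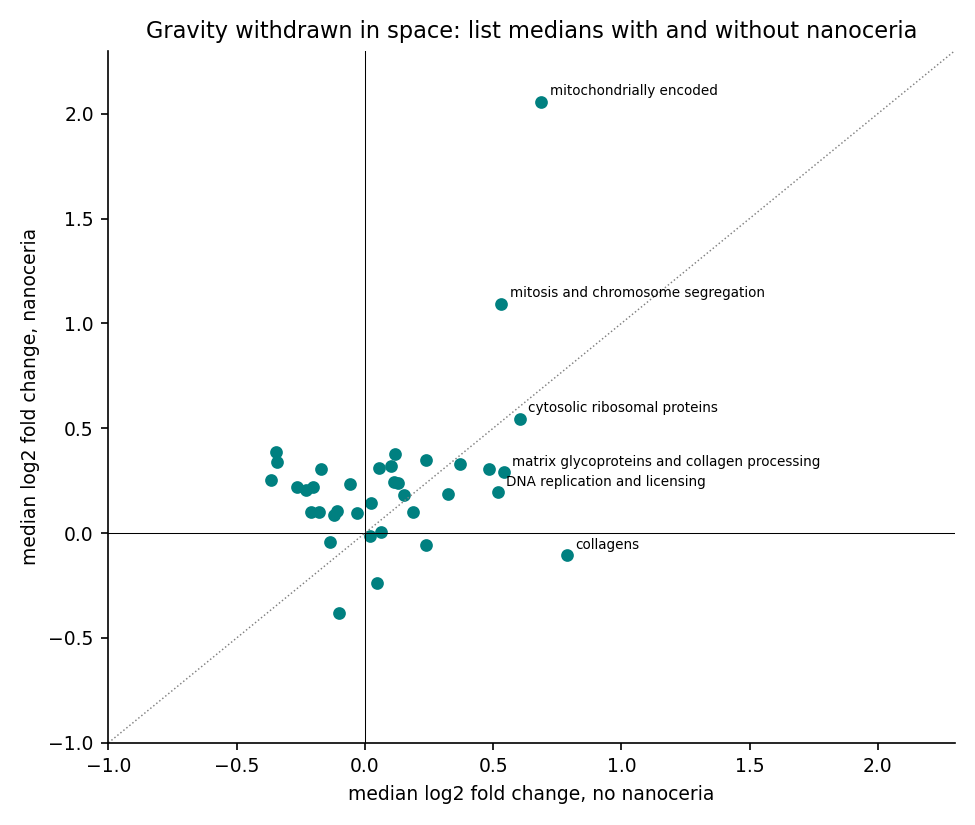
Median log2 fold change of the 37 gene lists for gravity withdrawn in space, in untreated cells (x axis) and in nanoceria-treated cells (y axis), 1 point per list, with the dotted line marking equal medians. The mitochondrially encoded list lies at 0.69 and 2.06 and the ribosomal proteins near the line; under the scaling to counts outside the dominant genes all genes shift along the x axis, their median from −0.012 to 0.44.

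Osgin1 had the opposite order in the 2 pairs of groups. In untreated cells it was at 2.93, 1.28 and 2.38 CPM without gravity and 7.58, 27.1 and 127 with it, so all 3 libraries lay below all 3, the reverse of the deep libraries of the treated cells. The difference between the log2 fold changes was 8.82 ± 1.85 (SE), with an edgeR adjusted p of 0.358. No adjusted p of the 11558 was lower, but genes with a smaller unadjusted p share that value, so Osgin1 was not first in rank. DESeq2 gave the difference for Osgin1 an adjusted p of 0.000349, and 0.00120 without the smallest library. Its level ranged from 5.69 to 149 CPM within the group without gravity and with nanoceria, and from 7.58 to 127 within that with gravity and without nanoceria. Ica1, another of the genes named above, had log2 fold changes of 3.62 [3.56] in treated and −1.19 in untreated cells and a difference of 4.80 ± 1.12 (SE). Among the lower genes, Setdb1 was at 11.7, 37.0 and 6.53 CPM without gravity and 8.51, 7.58 and 8.60 with it in untreated cells, which overlapped. Its difference was −3.07 ± 0.87 (SE), with an unadjusted edgeR p of 0.00231 and an adjusted p of 0.908.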

How the data were processed

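Each deposited file gave the raw read counts of 1 library by Ensembl gene, and, per the file headers, where the exons of that gene lie. The submitters' processing notes name CASAVA, Trimmomatic, STAR, Subread and featureCounts and the build GRCm38.p6; settings, the use of strand and read filters were not given in the sources used here. Per the labels' protocols, RNA came from a mirVana PARIS kit and libraries of its polyadenylated fraction from a NEBNext Ultra kit. The 18 small RNA samples were not analysed here. Symbols came from GENCODE M21 (48970 of 49315 identifiers had one), and coordinates from the files.

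All 18 polyadenylated RNA libraries entered 1 group-means model in edgeR 4.0.16 in R 4.3.3 (default filter on low counts, 11558 genes kept, TMM scaling, robust quasi-likelihood F-test, 12 residual degrees of freedom, Benjamini-Hochberg adjustment over all genes), with 1 spread estimated over the groups (common biological coefficient of variation 0.659). The contrasts were gravity withdrawn with nanoceria, without it, and the difference of those. Shares of counts were compared with 2-sided exact permutation tests over libraries (scipy 1.17.1). Wilson intervals at 95% and the floor of 3 counts cover counting error only, as the reads carried no molecular identifiers. CPM in the text use counts outside the 6 dominant genes as the denominator, a choice made after the TMM factor of the smallest library was seen to stand apart. The fit kept its TMM scaling.

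Alternatives were DESeq2 size factors, DESeq2 1.42.0, limma 3.58.1 voom with sample weights, no filter, a mean of at least 50 counts, removal of the dominant genes before scaling, their share as a covariate, only the compared libraries, and each replicate left out in turn. Chosen after seeing the data were the smallest library out of filter and fit, the same with DESeq2, and scaling to counts outside the dominant genes. The fit was tested on simulated data. The named genes were the 12 in each direction described in the text, with the 2 members of smallest p in each list and members with a mean of at least 100 CPM; 1 gene that the rule takes in is not reported here. The members, the 37 gene lists and 7 marker lists were chosen with earlier results of these data known.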

Additional observations from a re-analysis of the deposited data

How the results depend on the processing

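No paired analysis was possible because no label ties a library of one group to a library of another. The edgeR count of 0 genes for gravity withdrawn with nanoceria became 31 with DESeq2, 37 with DESeq2 without the smallest library, and 333 without a filter on low counts, where 25194 genes were tested. For the difference between treated and untreated cells the count of 0 became 15, 20 and 166 under the same 3 settings. It was 0 under the other alternatives run, and 0 in each fit that left out 1 replicate of either nanoceria group. The log2 fold change of Pola1 turned from −4.35 to 0.96 with voom, 1.49 without the smallest library, 1.48 with that library also out of the filter, and 1.52 with DESeq2 without it. That of Ttn turned from −6.47 to 1.56, 2.58, 2.58 and 3.04 in the same order. In the smallest library Pola1 had 16 counts (881 CPM) and Ttn 15 counts (826 CPM), far above the CPM of either gene in the other libraries compared. Leaving out 1 replicate at a time, Pola1 ran from −5.14 to 1.49, Ttn from −7.33 to 2.58, Megf10 from −0.31 to 3.37 and Slc39a10 from −2.32 to 0.90. Megf10 turned to −0.31 without replicate 1 of the group without gravity, and Slc39a10 to 0.90 without replicate 1 of the group with gravity, and the cause was not tested beyond the counts given. Direction was followed under every alternative for 101 of the genes described, and of these no other changed it. Most of the 101 were chosen by a small p in the main fit of the same data. Their steady direction is therefore partly set by that choice and is no test of it. Further list members were not in that set, and some changed sign without the smallest library. Among them were Sod1, from a log2 fold change of 0.22 to −0.26, and Ncam1, from 0.24 to −0.24. With 1 library left out at a time, the mean mitochondrial share of counts was higher without gravity by 0.237 to 0.308 percentage points. Its direction could not change, because the groups did not overlap. Over the same omissions the mean share of the dominant genes was higher without gravity by 4.82 to 20.1 points. The medians of the mitochondrially encoded, mitosis and ribosomal lists stayed above 0 under every alternative run. A difference in a low gene could not be seen in the smallest library, where 3 counts were 165 CPM.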

Other observations

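The smallest library, labelled as space with gravity, with nanoceria, replicate 3, held counts in genes that the other libraries nearly lacked. Of 326 protein coding genes with at least 10 counts there, 21 were under 10 CPM in each of the other 17 libraries. Together they held 321 counts, 1.77% of that library's counts outside the dominant genes. Foxp2, a transcription factor of neurons, had 35 counts there and 2 over the other 5 libraries compared. Mef2c, a transcription factor of muscle and neurons, had 29 and 2, and Fign, a microtubule-severing enzyme, 29 and 0. Bcl11a had 19 and 0, and Elavl2, a neuronal RNA-binding protein, 18 and 10. Ppargc1a, the coactivator of mitochondrial biogenesis, had 13 and 3, and Neurod1, a neuronal transcription factor, 10 and 0. The 21 were picked by their values in this library, so these are a description of it.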
